A study of Mus musculus with 6 samples.

Results

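The genes described here are 8 that the lateral wall of the cochlea uses to make and contain endolymph: Kcnq1, Kcne1, Slc12a2, Atp1b2, Esrrb, Slc26a4, Cldn11 and Lrp2. They were chosen by symbol for their known roles in potassium secretion, barrier formation and ion transport, and all 8 were found among the 24411 gene symbols measured. All 8 also belong to the 15303 genes that passed the filter on low counts. RNA was sequenced from sensory epithelium of P9 mice in 2 groups of 3 libraries, each library from 1 pool of 8 cochleae of 4 mice, so a pool and not a mouse is the replicate. Kir2.1-OE mice carried 1 copy of Otof rtTA, a doxycycline-dependent activator driven by the Otof promoter, which is active in hair cells, and 1 copy of TetO-Kir2.1-IRES-tauLacZ (Otof rtTA+/-; Kir2.1+/-). The controls were littermates with 1 copy of Otof rtTA and no Kir2.1 transgene (Otof rtTA+/-; Kir2.1+/+). Both groups were on the C57BL/6N background and drank water with doxycycline (DOX) at 0.5 mg/ml through their mothers, and the promoter directs Kir2.1, an inward rectifier K+ channel, mainly to inner hair cells. In bulk RNA fewer cells of a type and less RNA per cell cannot be told apart.

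Endolymph, the fluid that bathes the hair bundles, is rich in K+ and held at a positive potential, and the stria vascularis secretes it. In this tissue marginal cells take up K+ on their basolateral side through the Na+-K+-2Cl- cotransporter NKCC1 (Slc12a2) and the sodium pump, of which Atp1b2 encodes a beta subunit, and release it into endolymph through the channel formed by KCNQ1 and its subunit KCNE1. ESRRB is a nuclear receptor of marginal cells, basal cells seal the stria with tight junctions of claudin 11 (Cldn11), pendrin (Slc26a4) exchanges chloride and bicarbonate in spindle, root and outer sulcus cells, and megalin (Lrp2) is an endocytic receptor of epithelia.

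None of the 8 genes was called changed in Kir2.1-OE mice, where a call needed an adjusted p-value under 0.05 and a difference of more than 1.5-fold (quasi-likelihood test of edgeR, Benjamini-Hochberg adjusted). Over the 15303 genes tested, 20.5% were called, 15.5% as higher and 5.08% as lower. The counts called from other lists below are to be read beside these shares. At the adjusted p-value alone, Kcnq1 and Slc12a2 were higher and Slc26a4 and Cldn11 lower, 4 of 8 genes, where 50.8% of all genes passed (27.3% higher and 23.5% lower). The groups did not overlap for 5 of the 8, the same 4 and Atp1b2, where 61.6% of all genes had no overlap (31.7% with Kir2.1-OE higher and 29.9% with Kir2.1-OE lower). Against a log2 fold change of 0.6 (glmTreat of edgeR) 0 of the 8 passed, where 5.44% of all genes were higher and 0.372% lower. At an unadjusted p-value under 0.05 the same count of 4 was reached, and DESeq2's Wald test and limma-voom also called 0 of the 8. Their median log2 fold change was 0.06, against 0.01 over all genes tested.

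Between 35430940 and 41205047 reads were assigned to genes in the 6 libraries. Kcnj2, the gene of Kir2.1, had 2213 to 3813 normalized counts in the Kir2.1-OE libraries and 226.0 to 235.8 in the controls, so each library followed its label. Normalized counts are counts scaled to a common library size by edgeR's TMM method. Across genes long transcripts had higher log2 fold changes, from a median of -0.51 for the 656 genes of at most 1000 nt to 0.81 for the 886 genes above 8000 nt, so lengths are given beside the values below. A second fit with offsets for transcript length and GC content in each library is cited as the length-adjusted fit, in which 7.02% of all genes were called higher and 2.86% lower.

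In the plot of levels per kb the 8 genes formed 3 tiers, and levels of different genes are compared here only per kb of their longest annotated transcript. Atp1b2, Cldn11 and Slc12a2 had between 1680 and 2838 normalized counts per kb in the controls. Slc26a4, Lrp2 and Kcnq1 had between 116.3 and 249.3, and Esrrb and Kcne1 had 6.16 and 5.23. The upper tier held between 84.9% and 88.6% of the counts of all 8 genes in each library, so the total of the 8 mainly follows these 3 genes. Together the 8 took 0.0779% to 0.084% of the assigned reads in the controls and 0.0892% to 0.0923% in Kir2.1-OE mice. Of the 24046 genes with an annotated length, 924 had a higher level per kb in the controls than Atp1b2, and 14938 had a higher level than Kcne1.

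**Figure D1:**
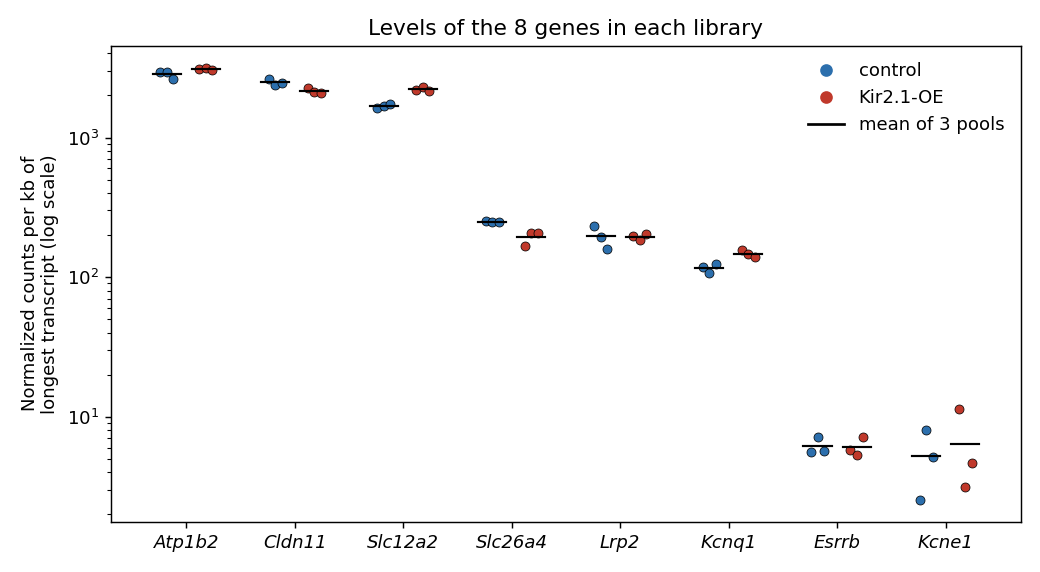
Normalized counts per kb of the longest transcript (log scale) for the 8 genes, with 1 point per library, control in blue and Kir2.1-OE in red, and a black line at the mean of 3 pools. Atp1b2, Cldn11 and Slc12a2 lie above 1000, Slc26a4, Lrp2 and Kcnq1 about 1 order of magnitude below them, and Esrrb and Kcne1 lowest.

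The order of mean levels differed between the 2 groups only among genes that lay within their spread of each other in Kir2.1-OE mice. In the controls it ran Atp1b2 (2838 ± 178 normalized counts per kb, SD, n = 3), Cldn11 (2498 ± 138), Slc12a2 (1680 ± 50.2), Slc26a4 (249.3 ± 2.48), Lrp2 (195.7 ± 35.8), Kcnq1 (116.3 ± 8.66), Esrrb (6.16 ± 0.892) and Kcne1 (5.23 ± 2.74). Esrrb and Kcne1 did not differ beyond their spread. In Kir2.1-OE mice Slc12a2 (2217 ± 83.9 per kb) and Cldn11 (2152 ± 91.0) lay within their spread of each other, as did Lrp2 (195.1 ± 9.97) and Slc26a4 (193.2 ± 23.4), and Kcne1 (6.38 ± 4.35) and Esrrb (6.07 ± 0.942).

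The genes that the marginal cell is best known for were scarce. Kcne1 (ENSMUSG00000039639.7, mm10 chromosome 16 from 92345982 to 92359468, longest transcript 3174 nt) had 35.9, 9.99 and 14.8 normalized counts in the Kir2.1-OE pools and 8.03, 25.4 and 16.3 in the controls. The groups overlapped, and no direction can be read at this depth (log2 fold change 0.27, 95% interval -0.97 to 1.52). Its direction turned to -0.44 when the first Kir2.1-OE pool was dropped and to -0.05 when the first control pool was. Esrrb (ENSMUSG00000021255.17, chromosome 12 from 86361117 to 86521628, longest transcript 4300 nt) had 24.6, 23.0 and 30.7 against 24.1, 30.9 and 24.4 normalized counts. Its log2 fold change was -0.02 with a 95% interval from -0.68 to 0.63, so that the intervals of both genes reach past a 1.5-fold difference in either direction.

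Further marginal cell genes were examined as a list. Bsnd, which encodes barttin, the subunit of the marginal cell chloride channels, had between 0 and 5.45 normalized counts and did not pass the count filter. Of the 8 genes of this list 6 were tested and 0 were called in edgeR, DESeq2's Wald test or limma-voom, with 3 at an unadjusted p-value under 0.05 in edgeR. Those were Abcg1 (0.42) and Heyl (0.29), higher, and Lmx1a (-0.27), lower, the last 2 named after their values were seen. Without Kir2.1-OE replicate 3, 1 gene of the list was called lower.

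Kcnq1 (ENSMUSG00000009545.14, chromosome 7 from 143106362 to 143427042, longest transcript 3029 nt) was measured well. It had 472.1, 441.7 and 423.1 normalized counts in the Kir2.1-OE libraries and 359.2, 323.5 and 374.6 in the controls. All 3 Kir2.1-OE pools lay above all 3 controls. The means were 445.7 ± 24.7 and 352.4 ± 26.2 (SD, n = 3), a 1.26-fold difference. The log2 fold change was 0.34 with a 95% interval from 0.09 to 0.58 (edgeR adjusted p = 0.0266). The adjusted p-value lost the 0.05 level without Kir2.1-OE replicate 1 (0.106) or 2 (0.0807), and without control replicate 1 (0.0505) or 2 (0.0853). In the length-adjusted fit the log2 fold change was 0.21 (edgeR adjusted p = 0.16, with a range from 0.0124 to 0.257 over the alternatives other than glmTreat).

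The level of Kcne1 per kb was between 2.13% and 7.51% of that of Kcnq1 in the 6 libraries, with 2.16% to 7.26% in Kir2.1-OE mice, so the ratio of the channel's 2 subunits overlapped between the groups. Of the other KCNQ and KCNE genes, all 8 were tested, 3 were called higher and 2 lower. With each library left out in turn 2 were called higher every time, and 3 lower without Kir2.1-OE replicate 3. DESeq2's Wald test and the fit with a replicate block also called 2 higher. Kcnq3 (1.05), with a transcript of 11824 nt, and Kcnq5 (0.73), with 6975 nt, were called higher, and in the length-adjusted fit they had 0.40 and 0.26 and were not called. In that fit 1 gene of the list was called higher and 1 lower. Kcne1l (Kcne5) fell by 1.14 on the log2 scale and Kcne3 by 1.11, both from low counts (between 29.6 and 44.1 against 70.9 and 98.7 for Kcne1l). Kcnq3, Kcnq5 and Kcne3 were named after their values were seen.

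Slc12a2 (ENSMUSG00000024597.11, chromosome 18 from 57878678 to 57946821, longest transcript 6520 nt) had the best resolved difference of the 8. It had 14373, 15036 and 13950 normalized counts in the Kir2.1-OE libraries and 10596, 11023 and 11238 in the controls, without overlap. The log2 fold change was 0.40, with a 95% interval from 0.24 to 0.56 that lies under the 1.5-fold threshold as a whole (edgeR adjusted p = 0.00139). Genes of 4000 to 8000 nt had a median log2 fold change of 0.30, and 26.3% of them were called higher. Slc12a2 had 0.08 in the length-adjusted fit (edgeR adjusted p = 0.404, with a range from 5.3e-07 to 0.541 over the alternatives other than glmTreat). NKCC1 is known from fibrocytes and glia as well as from marginal cells.

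The relatives of NKCC1 and the kinases that switch it on were measured alongside. Of 13 genes for cation chloride cotransporters and the WNK, SPAK and OSR1 kinases, 11 were tested, 5 were called higher and 0 lower, with 9 higher at the adjusted p-value alone. Over all genes tested 15.5% were called higher and 27.3% were higher at the adjusted p-value alone. Among genes of 4000 to 8000 nt 26.3% were called higher, and the median transcript of this list had 4740 nt. Wnk1, with an 11330 nt transcript, rose to 8922 to 10800 normalized counts from 4700 to 5384 (log2 fold change 0.97) and Wnk2 had 1.05. With the length and GC offsets edgeR called 0 of the 11 (3 at an adjusted p-value under 0.05), with 0.18 for Wnk1 and 0.12 for Wnk2, while offsets from the median transcript gave 3 called higher. Slc12a3, the cotransporter of the kidney's distal tubule, had no read in any library, which allows a share of up to 8.47e-06% of the smallest library.

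Atp1b2 (ENSMUSG00000041329.13, chromosome 11 from 69599736 to 69605942, longest transcript 3751 nt) had 11528, 11891 and 11349 normalized counts in Kir2.1-OE mice and 11089, 10971 and 9876 in controls. The groups did not overlap, as was so for 61.6% of all genes tested, but the difference of 0.12 on the log2 scale was small against its error (95% interval -0.04 to 0.29, edgeR adjusted p = 0.19). Its log2 fold change in the length-adjusted fit was -0.01 (edgeR adjusted p = 0.925, range over the alternatives other than glmTreat 0.0684 to 0.954).

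Of 12 genes for subunits of the sodium pump and its FXYD regulators 11 were tested, 3 were called higher and 0 lower, with 1 higher if replicate 1 of either group was dropped. A call of 1 gene lower was made without Kir2.1-OE replicate 2, without control replicate 1 or 2, and by DESeq2's Wald test, among others. Atp1b1, the beta subunit gene with the highest level of the list, had 9425 normalized counts per kb in the controls and a log2 fold change of 0.15 with overlapping groups. Fxyd2, a regulator of the pump, rose to 86.2, 91.9 and 68.8 normalized counts from 48.2, 35.4 and 66.2 (log2 fold change 0.72, edgeR adjusted p = 0.0499, and 0.96 in the length-adjusted fit). Its lowest Kir2.1-OE pool lay close to its highest control pool.

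**Figure D2:**
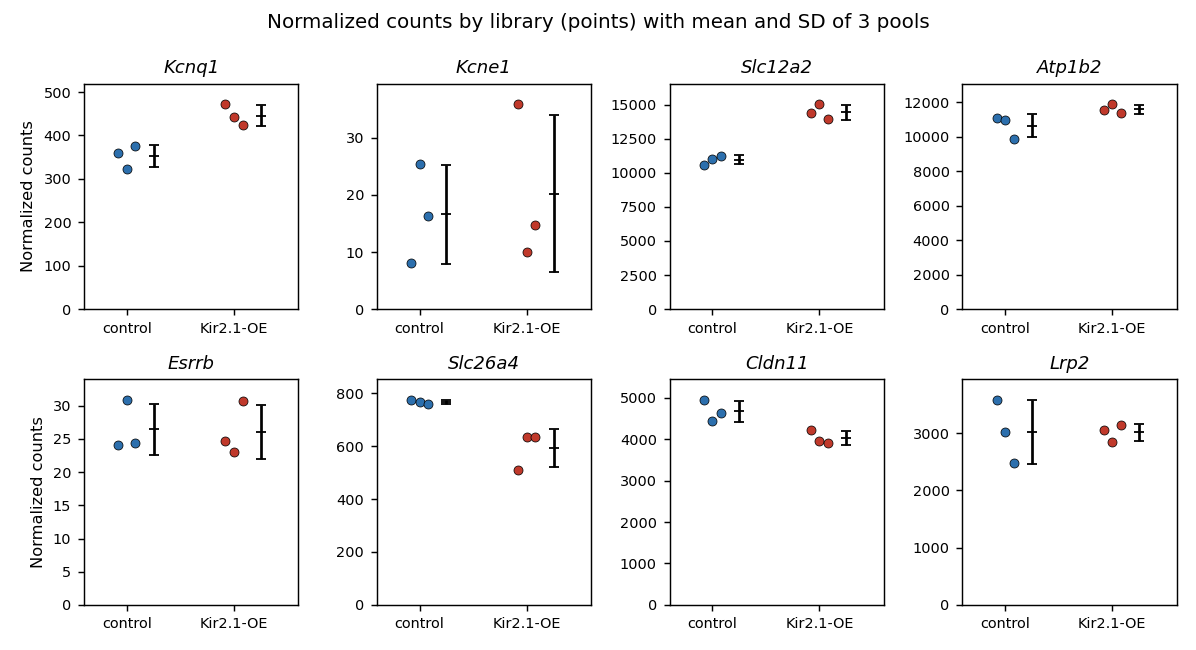
Normalized counts of each of the 8 genes in each library, control in blue and Kir2.1-OE in red, with the mean and SD of 3 pools beside the points and axes that start at 0. Kcnq1, Slc12a2 and Atp1b2 have Kir2.1-OE pools above the controls, Slc26a4 and Cldn11 below them, and Kcne1, Esrrb and Lrp2 overlap.

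Slc26a4 (ENSMUSG00000020651.8, chromosome 12 from 31519827 to 31559969, longest transcript 3075 nt) had 511.2, 635.6 and 635.8 normalized counts in Kir2.1-OE mice. The controls had 774.5, 766.0 and 759.3, close together and all above the Kir2.1-OE pools, a 1.29-fold higher mean. The log2 fold change was -0.37 with a 95% interval from -0.60 to -0.13 (edgeR adjusted p = 0.0151). It stayed between -0.44 and -0.28 with each library left out in turn, and the adjusted p-value stayed under 0.05 each time. Genes of 3000 to 4000 nt had a median of 0.01 and 2.20% of them were called lower. Slc26a4 had -0.32 in the length-adjusted fit (edgeR adjusted p = 0.0379, range over the alternatives other than glmTreat 0.00516 to 0.122), where 16.8% of all genes were lower at the adjusted p-value alone. With offsets from the median annotated transcript, a variant chosen after seeing the data, it had -0.19 (edgeR adjusted p = 0.122). That transcript has 385 nt for Slc26a4, against 3075 nt for the longest, so the value depends on which transcript is taken.

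Cldn11 (ENSMUSG00000037625.7, chromosome 3 from 31149920 to 31164324, longest transcript 1870 nt) had 4219, 3951 and 3902 normalized counts in Kir2.1-OE mice and 4948, 4440 and 4623 in controls, again without overlap. The log2 fold change was -0.21 with a 95% interval from -0.37 to -0.05 (edgeR adjusted p = 0.0304). Over genes of 1000 to 2000 nt the median was -0.30. The direction turned in the length-adjusted fit, to 0.03 (edgeR adjusted p = 0.797, range over the alternatives other than glmTreat 0.00666 to 0.828), but was -0.30 with offsets from the median transcript. The median transcript of Cldn11 also has 1870 nt, so its own length was the same in both of these fits. The adjusted p-value lost the 0.05 level without Kir2.1-OE replicate 2 (0.0658) or 3 (0.0628), and without control replicate 1 (0.105) or 3 (0.069).

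The start regions of Slc26a4 and Cldn11 are shown because these are the members lower in every Kir2.1-OE pool than in any control pool. Promoters from RefSeq (GRCm38.p6, which is mm10) were at hand for 4 of the 8 genes. Capitals mark 3 common core elements, searched by their letters on both strands. The element named for its thymines and adenines was spelled TATAAA. The second was spelled CCAAT, which reads ATTGG on the opposite strand. The third, to which SP1 binds, was spelled GGGCGG, and no element overlapped another. Each line ends at the base before the start site.
Slc26a4, chr12:31559985-31560084, minus strand: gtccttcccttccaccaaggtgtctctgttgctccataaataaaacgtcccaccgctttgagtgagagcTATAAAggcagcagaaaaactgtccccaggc
Cldn11, chr3:31149820-31149919, plus strand: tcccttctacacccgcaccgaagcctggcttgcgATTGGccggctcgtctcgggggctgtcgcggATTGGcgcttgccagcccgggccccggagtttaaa
Slc26a4 held a TATAAA that begins 31 bases before the start site, and Cldn11 held 2 matches to CCAAT on the opposite strand, 66 and 35 bases before it. In the 250 bases before the start site 12.4% of 32851 promoters held the first element, 33.8% the second and 32.7% the third. In the stretches printed the 2 genes shared none of these elements.

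Claudin 11 is also the claudin of oligodendrocyte myelin. The list of oligodendrocyte genes held 8 members, of which 7 were tested, 2 were called higher and 0 lower, Mag (0.72) and Cnp (0.67), which Schwann cells also make (1 called if Kir2.1-OE replicate 3 was dropped). Mog, a gene of oligodendrocyte myelin, had at most 84.2 normalized counts in Kir2.1-OE mice and between 1.02 and 154.5 in controls, and Opalin was at 0 in 5 of 6 libraries (8.21 in the other). Mobp, with 205.3, 15.0 and 94.1 against 110.4, 25.4 and 9.16, also differed widely between pools of 1 group. Cldn11 itself stayed between 3902 and 4948 normalized counts in all 6 libraries. Mag, Cnp, Mog and Opalin were named after their values were seen.

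Among the tight junction and gap junction genes examined beside Cldn11, 9 of 9 were tested, 2 were called higher and 0 lower. Tjp1, the gene of the junction scaffold ZO-1, rose to 9631 to 11457 normalized counts from 5807 to 6522 (log2 fold change 0.79, and 0.34 in the length-adjusted fit, where it was not called). The claudins Cldn9 (-0.36) and Cldn14 (-0.10), the tricellulin gene Marveld2 (-0.09) and Ocln (-0.35) had negative log2 fold changes that, like that of Cldn11, stayed under 1.5-fold. In the length-adjusted fit Cldn9 (1443 nt) had -0.12, Cldn14 (1457 nt) 0.08, Marveld2 -0.03 and Ocln -0.27. The connexin genes Gjb2 and Gjb6, whose channels carry K+ back towards the stria, had 0.04 and 0.08, with the groups overlapping. The genes other than Tjp1 were named after their values were seen.

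**Figure D3:**
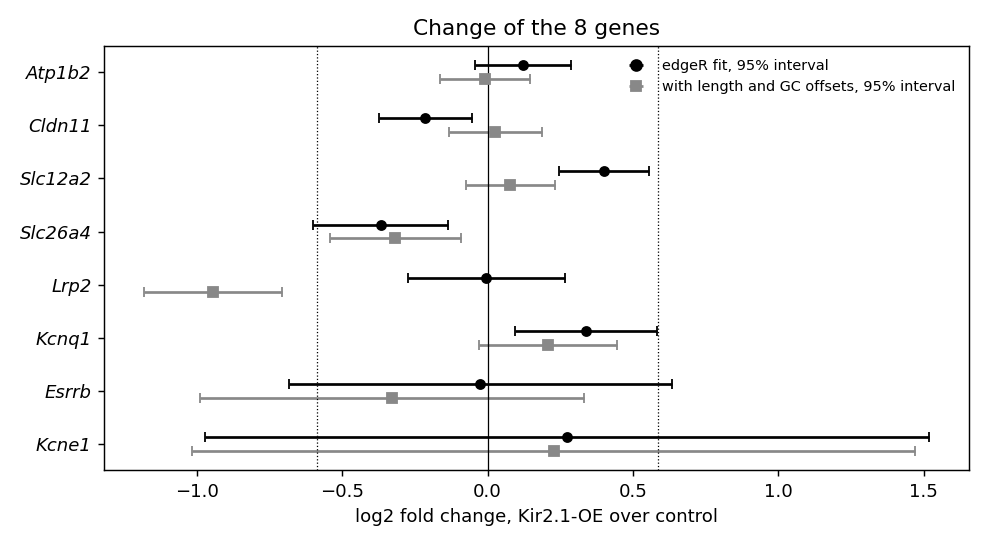
Log2 fold change of each gene, Kir2.1-OE over control, with 95% intervals, in the edgeR fit (black circles) and in the fit with length and GC offsets (grey squares), and dotted lines at a 1.5-fold difference. Slc26a4 stays below 0 in both fits, Slc12a2 moves from 0.40 to 0.08, Cldn11 from -0.21 to 0.03 and Lrp2 from 0.00 to -0.95.

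Lrp2 (ENSMUSG00000027070.14, chromosome 2 from 69424340 to 69586065) has the longest transcript of the 8, of 15460 nt. It had 3063, 2845 and 3143 normalized counts in Kir2.1-OE mice, inside the wider range of the controls with 3585, 3016 and 2476. The means were 3017 ± 154 and 3026 ± 554 (SD, n = 3), and the log2 fold change was -0.00 with a 95% interval from -0.27 to 0.26. The edgeR adjusted p was 0.979. Of the 886 genes above 8000 nt, 64.0% were called higher and 0.677% lower.

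In the plot of change against transcript length Lrp2 therefore lay below most of the other long genes, whose quartiles were 0.41 and 1.16. In the length-adjusted fit it was called lower, with a log2 fold change of -0.95 (95% interval -1.18 to -0.71, edgeR adjusted p = 9.67e-04), where 2.86% of all genes were called lower. With offsets from the median annotated transcript, which for Lrp2 has 2228 nt, the log2 fold change was -0.10 (edgeR adjusted p = 0.499, range over the alternatives other than glmTreat 9.67e-04 to 0.994), so the call rests on which transcript is taken. Without control replicate 1, the library with the most Lrp2, the unadjusted log2 fold change was 0.13.

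**Figure D4:**
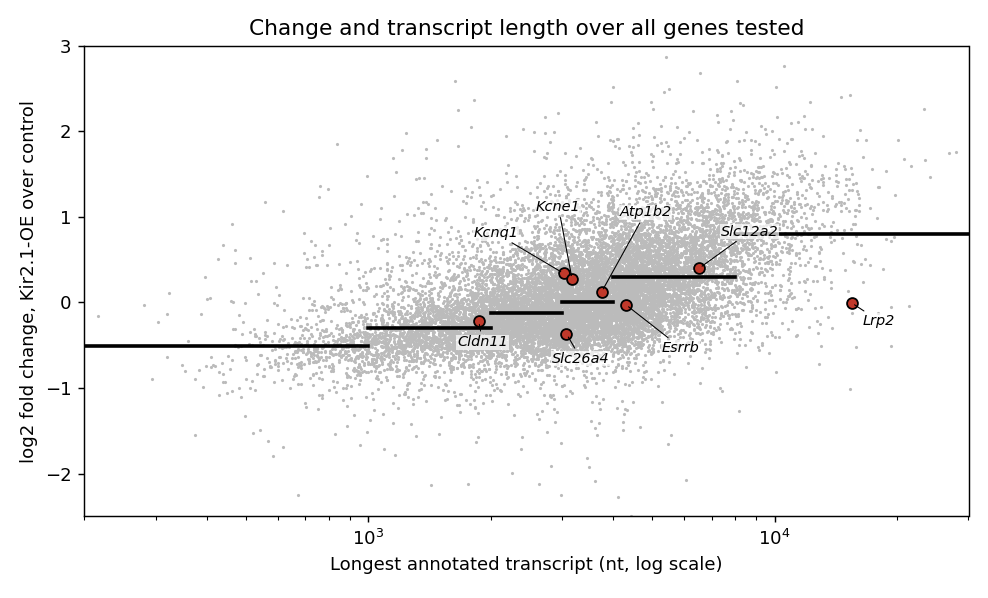
Log2 fold change, Kir2.1-OE over control, against the length of the longest annotated transcript (log scale) for all genes tested (grey, 10 genes outside the axes), with black lines at the median of each length class and the 8 genes in red. Lrp2 lies at 0.00 where the median of genes above 8000 nt is 0.81, and Slc12a2 and Cldn11 lie near the medians of their classes.

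Genes that work with megalin did not share 1 direction. Its coreceptor cubilin (Cubn, 11262 nt) had 557.3, 643.5 and 467.6 against 892.9, 599.7 and 704.4 normalized counts, a log2 fold change of -0.40 (edgeR adjusted p = 0.0657) that became -1.09 in the length-adjusted fit, where it was called lower. Lrp1, a receptor of the same family with a transcript of 14888 nt, rose to 16585 to 20804 from 7071 to 8111 normalized counts (1.27, and 0.01 in the length-adjusted fit). The chaperone gene Lrpap1 (0.15) and the adaptor genes Dab2 (0.22) and Gipc1 (-0.25) stayed under the threshold. Of the 6 genes 5 were tested, 1 was called higher and 0 lower, and those other than Cubn and Lrp1 were named after their values were seen.

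The epithelia that border the stria, where Slc26a4 is made, were followed through 5 genes. All 4 tested genes of the spindle, root and outer sulcus list were lower at the adjusted p-value, where 23.5% of all genes were, and Dpp10 and Bmp4 were called. Dpp10, a spindle cell gene with a 15297 nt transcript, fell to 730.8, 897.4 and 1177 normalized counts from 2440, 1830 and 1371 (log2 fold change -1.01, and -1.59 in the length-adjusted fit). Bmp4, a signal of the outer sulcus, fell to between 1327 and 1432 from between 2112 and 2740 (-0.74, and -0.56 in the length-adjusted fit, where it was no longer called). Anxa1 had -0.52 and Epyc -0.34, under the threshold, and in the length-adjusted fit -0.16 and -0.03. With each library left out in turn, 2 of the 4 genes were called lower every time. Foxi1, a regulator of pendrin in the endolymphatic sac, had 1 read in 1 library and none in the others. Anxa1, Epyc and Foxi1 were named after their values were seen.

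Reissner's membrane, which faces the stria across the endolymph, was followed through 3 genes, of which 1 was called lower, or 2 if replicate 3 of either group was dropped. Vmo1 fell to 6504, 7142 and 8826 normalized counts from 13144, 13172 and 11535 (log2 fold change -0.75), and Otx2 had -0.55. With the length and GC offsets edgeR called 0 of the 3, with 0 at the adjusted p-value alone, and Vmo1 and Otx2 had -0.27 and -0.37. In the controls Lrp2, Dpp10 and Otx2 (480.6, 400.7 and 329.8) were all highest in replicate 1 and lowest in replicate 3, an order picked after the values were seen. Anxa1 and Otx1 also had it, but Vmo1, Bmp4 and Epyc did not. The share of all genes with this order was not counted. The summed level of the Reissner's membrane list was 6909 to 9287 in Kir2.1-OE mice and 11993 to 13804 in controls. Vmo1, with a transcript of 672 nt, made up most of this sum, so the sum adds little to the values of Vmo1. Otx1 had a log2 fold change of 0.01 with overlapping groups and was named after its values were seen. The part of these cells in the values of Lrp2 and Slc26a4 was not tested.

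Intermediate cells, the melanocytes of the stria, were followed through 11 genes, of which 10 were tested. Dct, an enzyme of melanin synthesis, fell to 87.2, 149.9 and 183.0 normalized counts from 590.9, 476.1 and 410.2 (log2 fold change -1.81), and Tyr was called lower from fewer than 100 counts (-2.07). Both were also called in the length-adjusted fit (-1.64 and -2.08). Kcnj10, the K+ channel of intermediate cells that glia and supporting cells share, rose to 13142 to 15901 from 7146 to 9083 (0.79, and 0.45 in the length-adjusted fit, where it was not called), as did Mitf (0.64). The list thus had 2 genes called in each direction, but 1 lower without Kir2.1-OE replicate 1 or 2, and 1 higher and 1 lower if control replicate 1 was dropped. In the length-adjusted fit 0 were called higher and 2 lower, with 0.56 for Mitf. At the adjusted p-value alone 3 were higher and 4 lower in the main fit. Mlana had at most 13.2 normalized counts, and Tyr and Mitf were named after their values were seen.

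**Figure D5:**
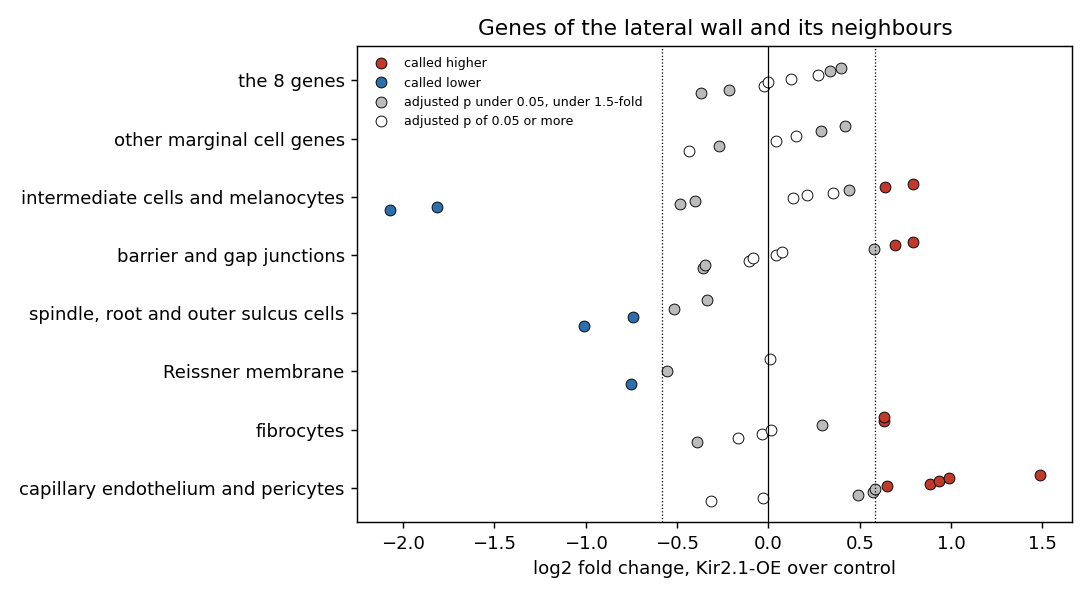
Log2 fold change, Kir2.1-OE over control, of the tested genes of each list, 1 point per gene, coloured by whether the gene was called higher (red), called lower (blue), had an adjusted p-value under 0.05 only (grey) or neither (white), with dotted lines at a 1.5-fold difference. The 8 genes and the other marginal cell genes stay within the dotted lines, the tested spindle, root and outer sulcus genes lie below 0, and most capillary genes lie above 0.

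The strial capillaries and the fibrocytes behind the stria complete the lateral wall. Bulk RNA does not tell strial vessels from other vessels of the dissection. Of 10 genes of endothelium and pericytes 5 were called higher and 0 lower (5 to 6 and 4 to 7 without 1 Kir2.1-OE or 1 control library), with a median log2 fold change of 0.61. Over all genes tested 15.5% were called higher and 5.08% lower. Flt1, a receptor for vascular endothelial growth factor, rose to 816.7 to 1077 from 311.0 to 382.7 normalized counts (1.49), and Cdh5, the cadherin of endothelium, had 0.99. The length-adjusted fit called 3 of the 10, with a median of 0.29. Of 7 fibrocyte genes 2 were called higher and 0 lower, with a median of 0.01, but 0 were called without Kir2.1-OE replicate 1 or 2, without control replicate 1 or 2, or with offsets from the median transcript. Coch had 93825 to 121012 against 49688 to 91329 normalized counts (0.63) and Slc4a11 had 0.64 with overlapping groups, while Otos, the most abundant, had -0.17 (edgeR adjusted p = 0.469) and was named after its values were seen.

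Relatives of 3 further members were examined, against a share of 15.5% called higher over all genes tested. Of the nuclear receptors and coactivators related to ESRRB, 4 of 5 were called higher, Esrrg (0.79), Ppargc1a (1.11), Ppargc1b (0.98) and Nrip1 (1.04), and 3 of these in the length-adjusted fit. The count was 2 without Kir2.1-OE replicate 3 or control replicate 3. Esrrg had 1254, 1006 and 2019 normalized counts against 906.0, 889.5 and 677.9, and was highest in Kir2.1-OE replicate 3. Among 10 relatives of pendrin 8 were tested and 2 were called higher, Slc26a1 (0.92) and Slc26a5 (0.62), the latter being prestin of outer hair cells, and 1 was called if replicate 2 of either group was dropped. Of 7 genes of acid and bicarbonate transport 1 was called higher, Slc4a11, a call lost with the offsets and without Kir2.1-OE replicate 1 or 2 or control replicate 1 or 2, while Atp6v0a1 had 0.43. The proton pump genes Atp6v1b1 (at most 37.1 normalized counts) and Atp6v0a4 (28.7 to 57.2), which serve endolymph, were scarce in all libraries. Esrrg, Ppargc1b, Atp6v1b1 and Atp6v0a4 were named after their values were seen.

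For each member the genes with the most similar profile over the 6 libraries were sought by the root mean square difference of centred log2 normalized counts, among 13644 other genes with a mean of at least 50 (13645 for Kcne1 and Esrrb). Arhgap5 (0.0152) was nearest to Kcnq1. Atrnl1 (0.0234) was nearest to Slc12a2, Tgfb2 (0.0242) to Atp1b2, Zbtb8os (0.0207) to Slc26a4, and D230025D16Rik (0.02) to Cldn11. Lrp2 was nearest to Vtn (0.0529), Esrrb to Bzw2 (0.045), and Kcne1 had no near neighbour (0.325 for Npcd). No member was among the 2 nearest genes of another.

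Other cell types of the dissection also differed between the groups. The summed normalized counts of 8 spiral ganglion neuron genes were 19280 to 44798 in Kir2.1-OE mice and 11210 to 16944 in controls, with 5 called higher, or 3 if replicate 3 of either group was dropped. Those of 7 genes of Schwann and satellite glia were 310381 to 408440 against 222384 to 286465 with 4 higher, or 2 if Kir2.1-OE replicate 3 was dropped. Those of 8 cartilage and bone genes were 805749 to 950624 against 392160 to 540551 with 4 higher, or 2 if replicate 1 of either group was dropped, and 1 in the length-adjusted fit. Hair cell and supporting cell lists had 3 of 8 genes called higher each (1 and 2 in the length-adjusted fit), macrophage genes 0 of 6 (3 at an unadjusted p-value under 0.05 in edgeR, and 0 called by DESeq2's Wald test or limma-voom), and 2 of 4 erythrocyte genes were called lower. Of the latter 1 was called lower if Kir2.1-OE replicate 2 was dropped, 0 lower and 1 higher if control replicate 1 was dropped, and 0 in the length-adjusted fit. The part of these cells in the values of Slc12a2, Atp1b2, Cldn11 and Kcnq1 was not tested.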

How the data were processed

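RNA of cochlear sensory epithelium was enriched for poly(A), sequenced in pairs of reads and mapped to mm10 with the nf-core RNA pipeline by the authors, who deposited Salmon's expected counts per gene symbol, not divided by length or depth. Tool versions and the annotation are not given in the sources used here. The expected counts, of which 6.95% were not whole, were rounded and tested with edgeR 4.0.16 (R 4.3.3): TMM, filterByExpr, quasi-likelihood test and Benjamini-Hochberg adjustment over 15303 genes. Calls required both an adjusted p-value below 0.05 and more than a 1.5-fold difference. Alternatives used DESeq2 1.42.0 (size factors, Wald test), limma-voom 3.58.1, edgeR's glmTreat, other scalings and filters, unrounded counts, a replicate block, each library left out, and offsets. Length and GC came from the longest transcript in GENCODE vM21, which matched 23376 of 24411 symbols, and 670 more through an older symbol. Offsets were loess trends (span 0.4) on length and GC of the log2 ratio between a library and the mean of all. The model was tested on simulated data. Intervals of a count of 0 use 3 counts and cover counting error only.

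Libraries of a group differed by 15.7 to 31.1 times the sampling noise (chi-square per degree of freedom). The labels do not say that pools came from separate litters, so p-values measure the spread between pools. An exact permutation test of 1 gene over these pools (3 against 3) has a smallest p-value of 0.10. Members and lists were chosen with earlier results of these data known. Text names all members, Kcnj2, the 2 genes of each list with the largest absolute log2 fold change among those with a mean of at least 50 (10 where fewer than 2 reach 50), partners of a member in 1 complex, and nearest profiles. Others are marked. Some genes are not reported here.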

Additional observations from a re-analysis of the deposited data

How the results depend on the processing

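No member was called in 17 of the 20 alternatives. The length and GC offsets gave 1 member lower, also with the replicate block (1), and the adjusted p-value alone gave 2 higher and 2 lower. Over all genes, 2365 were called higher and 778 lower. The offsets gave 1074 and 438, the offsets with the replicate block 837 and 374, the adjusted p-value alone 4184 and 3590, the test against 0.6 gave 832 and 57, and upper quartile scaling gave 1378 lower. Under these alternatives 5 members changed sign. Atp1b2 had -0.0099 with the offsets and -0.0083 with the block added. Cldn11 had 0.027 with the offsets and 0.026 with the block added. Lrp2 had 0.0099 with the replicate block, 0.010 with limma-voom, and between -0.13 and 0.13 with a library left out. Esrrb ranged from -0.17 to 0.10 and Kcne1 from -0.44 to 0.73 with a library left out. The cause of these changes was not tested. Kcne1 could not be tested with at least 10 counts in every library.

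The replicate numbers mark no shared litter in the labels, the column header of control replicate 1 carries another number than its label, which leaves its match in doubt, and the deviations of same-numbered libraries from their group means correlated at -0.11, -0.23 and -0.21. With the replicate block the log2 fold change of Slc26a4 was -0.37 and that of Slc12a2 0.40, and the adjusted p-values of Kcnq1 and Cldn11 went to 0.0685 and 0.066 (edgeR).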
